A study of Rattus norvegicus with 24 samples.

Results

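The experiment asks whether exposure to dibutyl phthalate (DBP) before birth alters the response of the pubertal rat testis to a single dose of DBP. It comprises 16 arrays, chosen by their titles, of the 24 in the series, all from male Fisher 344 rats at postnatal day (PND) 35, with 1 Affymetrix Rat230_2 array per testis sample. Pregnant dams were gavaged daily from gestational day 12 to 20 with DBP at 50 mg/kg in corn oil or with corn oil alone. At PND35 their male pups received 1 gavage of DBP at 500 mg/kg or of corn oil, and the testis was taken 6 h later and stripped of its capsule before freezing. Groups are named by the fetal exposure and then the PND35 dose. They are DBP-DBP (pups 124, 128, 133 and 135), DBP-oil (pups 123, 127, 132 and 134), oil-DBP (pups 105, 111, 115 and 121) and oil-oil (pups 104, 110, 114 and 120). All pups were gavaged at PND35, and each control group received the corn oil vehicle. The model covers 1 strain, 1 fetal dose, 1 pubertal dose and 1 time after it, in whole testis. The litter of each pup is not given in the labels used here, so p-values measure the spread between pups that may share a dam.

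DBP is a plasticiser whose ester is cleaved in the gut to a monoester, the form that reaches the testis. In fetal rats it lowers the expression of steroid synthesis genes in Leydig cells. In pubertal rats the Sertoli cell, which nourishes the germ cells, is regarded as a main target of a high dose. Stressed or stimulated cells first switch on immediate early transcription factors such as Fos and Egr1. Chemokines, which call in leukocytes, and inhibitors that end the signal follow.

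The compared quantity was the interaction, (DBP-DBP minus DBP-oil) minus (oil-DBP minus oil-oil), on the log2(intensity + 16) scale. A positive interaction therefore means a more positive response to the pubertal dose after fetal DBP than after fetal oil. It was tested with limma over 31042 probe sets, with Benjamini-Hochberg adjustment and a threshold of 0.05. Differences on this scale understate the change of genes whose intensity lies near or below 16. In bulk tissue, fewer cells of a type and less RNA per cell cannot be told apart.

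The arrays differed in technical measures that were partly tied to fetal exposure. Spike-in poly-A RNA, added during labelling, averaged 7.11 in DBP-DBP and 5.90 in oil-DBP arrays on the log2 scale. The dosed groups did not overlap, at 6.97 to 7.18 in DBP-DBP and 5.80 to 5.98 in oil-DBP arrays. Between them, spike-in level and fetal exposure cannot be told apart. Averages are also given for the pups given oil. The spike-in average was 6.49 in DBP-oil arrays, of which pups 132 and 134 were as high as DBP-DBP, and 5.82 in oil-oil arrays. The RNA integrity number was 8.5 to 8.9 in DBP-DBP and 8.5 to 8.7 in oil-DBP pups (exact two-sided permutation p = 0.229). It was 8.6 to 8.9 in DBP-oil and 8.2 to 8.6 in oil-oil pups (exact p = 0.0571, or 0.114 after adjustment over both comparisons), where the smallest p that 4 against 4 allows is 0.0286. The array of oil-DBP pup 115 and that of oil-oil pup 104 came from Trizol extracts and the other 14 from a column kit. The distance of each array from the mean of the other arrays of its group was taken over probe sets with a mean intensity of at least 100. It was 0.239 to 0.349 in oil-DBP pups, with pup 105 farthest, and 0.215 to 0.282 elsewhere (root mean square, log2). The part of these measures in the results was not tested. All 12 spermatid markers and all 11 Leydig cell markers, and 15 of 16 Sertoli cell markers, had mean intensities over 16. So had all 9 endothelial and all 4 blood markers, and only 16.9% to 19.4% of all probe sets lay under 16 on each array. This cut therefore cannot tell whether the tissue matched its label.

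No probe set passed for the interaction (0 of 31042, 0%; limma, smallest adjusted p = 0.672). At an unadjusted p under 0.05 there were 1466 probe sets (4.72%), of which 800 were higher and 666 lower, where a uniform spread of p-values would give 1552. The pubertal dose itself called 1623 probe sets after fetal DBP (5.23%; 1131 higher and 492 lower) and 2770 after fetal oil (8.92%; 1481 higher and 1289 lower). This gap in counts is not a tested difference, and single pups moved it. The count after fetal DBP was 1097 without DBP-DBP pup 133, and 935 when the fit carried a term for spike-in class, high or low. Only the DBP-oil group held arrays of both classes, so that term rested on that group. The count after fetal oil was 1597 without oil-DBP pup 111, 1716 without oil-DBP pup 121 and 4607 without oil-DBP pup 105. Over all 31042 probe sets the interaction was bounded within 2-fold in either direction, that is, its 95% interval lay within 1 log2 unit of 0, for 17412 (56.1%).

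Strong responders were chosen on the average of both responses. Its estimate is uncorrelated with the interaction in this balanced design if all groups have equal spread. The measured spreads differed between groups, as described below, so this holds only approximately. A total of 696 probe sets of 413 genes (2.24% of all) had an average response of at least 1 log2 unit with an adjusted p under 0.05, 617 higher and 79 lower after the dose. Their median response size was 1.45 after fetal DBP and 1.53 after fetal oil (log2). Their interactions, signed by the direction of the response, had a median of -0.07, a middle range of -0.30 to 0.14 and extremes of -1.56 and 1.45. The interval lay within 1 log2 unit for 348 of the 696 (50%), against 56.1% of all probe sets, and within 1.5-fold for 63 (9.05%). The median half-width of the interval was 0.72 (1.65-fold). This is the reach of single unadjusted intervals and not the size of difference that the adjusted test could detect. At an unadjusted p under 0.05 there were 28 (4.02%), against 4.72% over all probe sets.

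Among the strongest responses the medians of the fetal groups were close. For 547 probe sets with an average response of 1 to 2 log2 units the medians were 1.30 after fetal DBP and 1.41 after fetal oil. For the 97 between 2 and 3 log2 units both medians were 2.45, and for the 52 at 3 or more they were 3.51 after fetal DBP and 3.49 after fetal oil. The 95% interval of the interaction lay within 1 log2 unit for 16 of those 52, whose median half-width was 0.87. Across all 31042 probe sets, whatever their response, the responses of the fetal groups correlated with Pearson's r = 0.61, a description across probe sets of the same 16 arrays.

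**Figure D1:**
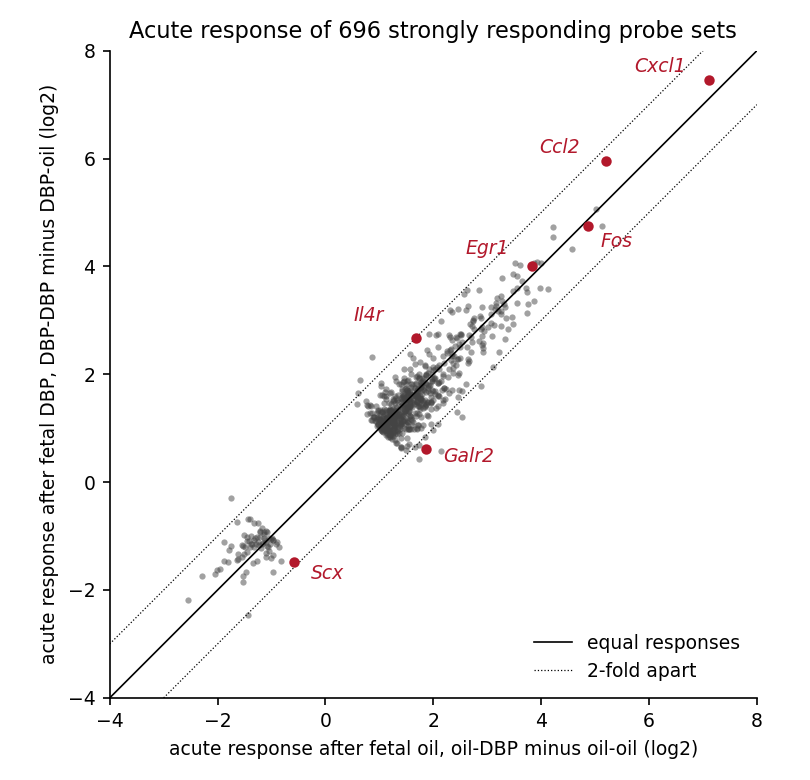
Response to the pubertal dose after fetal DBP (vertical axis, log2) against the response after fetal oil (horizontal axis, log2) for the 696 strong responders, 1 point per probe set. The lines mark equal responses and a 2-fold difference either way; Cxcl1, Fos and Egr1 had interactions of 0.34, -0.12 and 0.17, and Ccl2, Scx, Il4r and Galr2, farther from the line of equality, 0.75, -0.90, 0.99 and -1.26.

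The mean of the strong responders in each pup, with falling probe sets turned in sign, gave 1 value per animal for the size of the whole response. The index minus the mean of the own oil group was 1.47, 1.41, 1.97 and 1.82 in DBP-DBP pups 124, 128, 133 and 135. It was 1.43, 2.06, 1.44 and 2.03 in oil-DBP pups 105, 111, 115 and 121. The groups overlapped across nearly their whole range, and each held 2 pups with a lower and 2 with a higher value. The mean response was 1.67 ± 0.16 after fetal DBP and 1.74 ± 0.16 after fetal oil (SE, n = 4 pups per group). The interaction was -0.07 (95% interval -0.56 to 0.41). On this log2 index the response after fetal DBP was 95.9% of that after fetal oil. The interval corresponds to 67.9% and 124% if the fetal oil response is taken as known without error. It pools all groups, although the SD was 0.27 in DBP-DBP and 0.35 in oil-DBP pups against 0.035 in DBP-oil and 0.041 in oil-oil pups.

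Of the gene lists, 7 counted as pathways with a strong acute response: their members called in the average response were at least as many as those not called (6.77% of all probe sets were called higher and 7.35% lower), and their median size was at least 0.5 log2 units. Every one of the 7 list means had an interaction interval within 1 log2 unit of 0. These bounds hold for the means, which include members that did not respond, and single members were bounded less closely. Intervals lay within 1 log2 unit for 4 of 10 AP-1, 4 of 15 chemokine and 7 of 16 matricellular genes. The counts were 8 of 12 for Egr and Nr4a, 9 of 15 for NF-kB, 13 of 18 for death receptor and 12 of 13 for feedback genes. Of the 28 genes with the largest average responses in these lists, 4 per list, 27 had an interval that covered 0 and 12 an interval within 1 log2 unit. The exception was Adamts1, described below with the matrix genes.

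**Figure D2:**
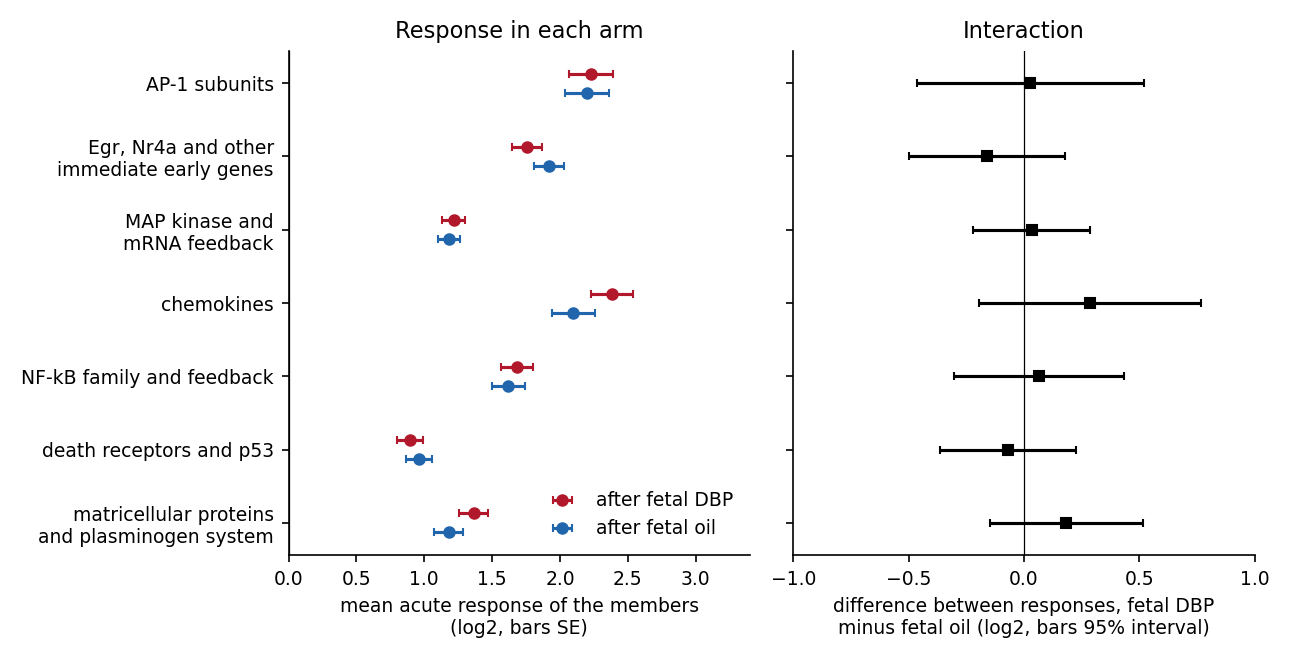
Left, mean log2 response to the pubertal dose (± SE) of 7 pathways after fetal DBP and after fetal oil; right, the interaction of each list mean with its 95% interval. All 7 intervals include 0 and end within 1 log2 unit, from -0.50 at the lower end to 0.77 at the upper end.

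The AP-1 genes encode paired transcription factors that act within minutes to hours of a stimulus. Of 10 measured members, 9 rose in the average response. On their own, 7 rose after fetal DBP (3.64% of all probe sets) and 9 after fetal oil (4.77%). The same shares stand beside the counts of risen members in the lists that follow. For fallen members the shares were 1.58% after fetal DBP and 4.15% after fetal oil. Fos had intensities of 1437, 792, 721 and 1629 in DBP-DBP pups 124, 128, 133 and 135, and 20.3, 22.8, 36.8 and 18.9 in the DBP-oil pups. It had 1159, 1128, 1107 and 911 in oil-DBP pups 105, 111, 115 and 121, and 19.3, 43.1, 6.86 and 17.9 in the oil-oil pups. Every dosed pup was far above every oil pup, and the dosed groups overlapped. The Fos responses were 4.75 and 4.87 log2 units after fetal DBP and fetal oil, with an interaction of -0.12 (95% interval -0.91 to 0.67). Maff, a small partner protein of AP-1 factors, Fosl1, a Fos relative, and Atf3, a stress factor, rose by 3.42, 3.04 and 3.05 after fetal DBP and by 3.18, 2.88 and 2.75 after fetal oil. Jun and Junb, partners of Fos, had interactions of -0.05 (-0.45 to 0.35) and 0.08 (-0.53 to 0.69). The list mean rose by 2.23 after fetal DBP and 2.20 after fetal oil, an interaction of 0.03 (-0.46 to 0.52).

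The second immediate early group, of Egr and Nr4a factors with Ier3, a stress-response gene, and Myc, a growth regulator, is driven in part by serum response factor, which binds the CArG box. The promoters of 2 strongly induced genes are shown because they hold this motif and the responses of both genes had narrow bounds. Sequences are from RefSeq on build GRCr8, 250 bases before to 50 after the start; capitals mark CArG boxes.
Egr1, chr18:26736828-26737127, plus strand: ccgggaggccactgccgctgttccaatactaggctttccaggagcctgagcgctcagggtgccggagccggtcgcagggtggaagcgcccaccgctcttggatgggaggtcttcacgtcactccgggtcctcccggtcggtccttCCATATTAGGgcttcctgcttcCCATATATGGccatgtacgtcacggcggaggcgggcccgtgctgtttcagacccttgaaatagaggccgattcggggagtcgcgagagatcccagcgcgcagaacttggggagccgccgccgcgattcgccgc
Zfp36, chr1:92799059-92799358, minus strand: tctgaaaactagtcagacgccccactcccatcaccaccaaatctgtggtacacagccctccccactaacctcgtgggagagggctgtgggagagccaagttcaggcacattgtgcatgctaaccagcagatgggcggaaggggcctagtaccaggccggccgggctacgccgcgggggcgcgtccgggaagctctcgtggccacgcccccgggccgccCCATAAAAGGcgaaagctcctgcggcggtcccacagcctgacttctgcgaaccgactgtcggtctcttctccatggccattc
The boxes begin at positions -105 and -83 from the start in Egr1 and at -32 in Zfp36. A CArG box was found in 1.64% of 33469 RefSeq promoters of this length, in 1.35% of the 11733 measured genes that have one, and in 8 of the 293 of these with a strong rise (2.73%). Those 8 genes had median responses of 2.53 after fetal DBP and 2.44 after fetal oil, with interactions between -0.54 and 0.33.

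Egr1 intensities were 3682, 2566, 2627 and 5264 in DBP-DBP pups 124, 128, 133 and 135, and 161 to 254 in the DBP-oil pups. They were 3281, 3519, 3585 and 3081 in oil-DBP pups 105, 111, 115 and 121, and 165 to 253 in the oil-oil pups. The dosed pups lay far above the oil pups in both fetal groups, and the DBP-DBP pups fell on both sides of the oil-DBP pups. The responses were 4.00 after fetal DBP and 3.84 after fetal oil, with an interaction of 0.17 (-0.35 to 0.69). Ier3 rose by 3.18 and 3.25, and Myc by 3.00 and 2.73, after fetal DBP and fetal oil. Egr2, an Egr1 relative, rose by 2.94 after fetal DBP and 3.48 after fetal oil (interaction -0.54, -1.29 to 0.22), although another, dimmer probe set of Egr2 had an interaction of 0.67. Of 12 members, 9 rose on average, after fetal DBP and after fetal oil alike in number. As a list they rose by 1.76 on average after fetal DBP and by 1.92 after fetal oil, with an interaction of -0.16 (-0.50 to 0.18).

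Feedback inhibitors of MAP kinase signalling and of mRNA stability had the narrowest interval of the 7 pathways. Of 13 members, 9 rose in each fetal group and 12 had intervals within 1 log2 unit. Zfp36, which destabilises mRNAs of cytokines and early genes, had intensities of 2157, 1590, 1609 and 2282 in DBP-DBP pups and 191 to 274 in DBP-oil pups. It had 2552, 2333, 2005 and 2074 in oil-DBP pups and 206 to 253 in oil-oil pups. The dosed groups overlapped, with the lowest 2 values in DBP-DBP pups 128 and 133. The interaction was -0.21 (-0.60 to 0.18). Spry1, an inhibitor of growth factor signalling, and Dusp1 and Dusp5, phosphatases of MAP kinases, had interactions of 0.41 (-0.13 to 0.95), 0.30 (-0.21 to 0.81) and 0.31 (-0.27 to 0.90). The list mean rose by 1.22 after fetal DBP and 1.18 after fetal oil (0.03, -0.22 to 0.29).

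NF-kB is held in the cytoplasm by inhibitors that it induces itself, which makes the inhibitors part of the response. The promoters of 2 chemokine genes are shown because they hold an NF-kB site and belong to genes with some of the largest responses here. Capitals mark the sites, from the same source and over the same window.
Cxcl1, chr14:17479272-17479571, minus strand: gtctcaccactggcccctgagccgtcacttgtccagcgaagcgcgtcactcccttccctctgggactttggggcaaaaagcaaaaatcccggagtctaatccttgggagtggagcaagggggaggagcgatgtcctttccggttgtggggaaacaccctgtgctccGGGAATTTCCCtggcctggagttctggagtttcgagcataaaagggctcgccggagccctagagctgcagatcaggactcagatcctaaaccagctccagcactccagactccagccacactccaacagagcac
Ccl20, chr9:91836909-91837208, plus strand: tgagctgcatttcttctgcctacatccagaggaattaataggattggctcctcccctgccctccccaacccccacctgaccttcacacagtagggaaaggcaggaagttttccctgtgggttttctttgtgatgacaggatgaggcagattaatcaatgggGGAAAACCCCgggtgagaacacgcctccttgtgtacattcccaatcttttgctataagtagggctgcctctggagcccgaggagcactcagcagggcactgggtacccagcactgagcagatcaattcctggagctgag
In Cxcl1 a plus-strand and a minus-strand match overlap at -84 and -83, and in Ccl20 the match begins at -89 on the minus strand. On both strands, the motif was found in 4.18% of all promoters, in 4.93% of the measured genes and in 42 of the 293 strongly induced genes (14.3%). Those 42 had median responses of 1.95 after fetal DBP and 1.94 after fetal oil and a median interaction of 0.09. The AP-1 site TGANTCA was in 7.33% of all promoters, in 5.44% of the measured genes and in 40 of the 293 (13.7%), with median responses of 1.80 and 1.79 after fetal DBP and fetal oil. The cyclic AMP element TGACGTCA was in 1.83% of all promoters, in 2.86% of the measured genes and in 11 of the 293 (3.75%), with medians of 2.30 after fetal DBP and 2.00 after fetal oil. TATAAA, part of a general promoter element, was in 14.2% of all promoters, in 8.45% of the measured genes and in 41 of the 293 (13.99%).

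Of 15 measured NF-kB family and feedback genes, 12 rose after fetal DBP and 11 after fetal oil. The list mean rose by 1.69 after fetal DBP and 1.62 after fetal oil (interaction 0.06, -0.30 to 0.43). Nfkbia, the classical inhibitor, rose by 1.28 after fetal DBP and 1.25 after fetal oil and had an interval within 1.5-fold, 0.03 (-0.35 to 0.42). Tnfaip3, an enzyme that ends the signal, rose by 2.70 after fetal DBP and 2.31 after fetal oil (0.39, -0.23 to 1.00). Nfkbiz, a nuclear co-regulator, Ripk2, a kinase below intracellular bacterial sensors, and Nfkb2, an NF-kB subunit, had interactions of 0.17, -0.07 and 0.06, with intervals up to 1.34 in size. Bcl3, a co-activator, had 436, 454, 856 and 629 in DBP-DBP pups and 12.98 to 65.6 in DBP-oil pups. It had 321, 726, 555 and 922 in oil-DBP pups and 54.7 to 93.0 in oil-oil pups. The dosed groups overlapped, while the DBP-oil pups reached lower than the oil-oil pups. The Bcl3 interaction of 0.94 had the largest upper bound among the named members of this list (1.89; limma adjusted p = 0.954), and other probe sets of Bcl3 gave 0.26 and -0.30.

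Cxcl1 and Ccl2 had the largest responses of the named genes. Cxcl1, which attracts neutrophils, had 5324, 3525, 1842 and 6603 in DBP-DBP pups 124, 128, 133 and 135, and 6.87, 1.13, 13.8 and 4.15 in the DBP-oil pups. It had 3242, 4179, 2763 and 3988 in oil-DBP pups 105, 111, 115 and 121, and 3.64, 4.07, 19.9 and 8.35 in the oil-oil pups. All oil pups were near the bottom of the scale, and the DBP-DBP pups held both the highest and the lowest dosed value. The responses were 7.45 after fetal DBP and 7.12 after fetal oil, with an interaction of 0.34 (-0.52 to 1.19). Ccl2, which attracts monocytes, had 1959, 1596, 2583 and 3597 in DBP-DBP pups and 19.3 to 23.6 in DBP-oil pups. It had 1700, 2096, 1284 and 2730 in oil-DBP pups and 24.1, 6.26, 72.2 and 58.0 in oil-oil pups. The dosed groups overlapped, and the oil-oil pups were more scattered than the DBP-oil pups. The Ccl2 interaction was 0.75 (-0.19 to 1.69), so a response more than 2-fold larger after fetal DBP lies inside its bounds and one more than 2-fold smaller does not. Ccl20, which attracts lymphocytes and dendritic cells, and Ccl7, which attracts monocytes, had interactions of 0.50 (-0.79 to 1.79) and 0.33 (-0.38 to 1.04). Cxcl10, an interferon-induced chemokine, rose by 3.79 after fetal DBP and 3.28 after fetal oil (0.52, -0.08 to 1.11). The list mean rose by 2.38 after fetal DBP and 2.10 after fetal oil, with an interaction of 0.29 (-0.20 to 0.77), the highest upper bound of the 7 pathways. In both fetal groups 9 of 15 members were called higher.

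**Figure D3:**
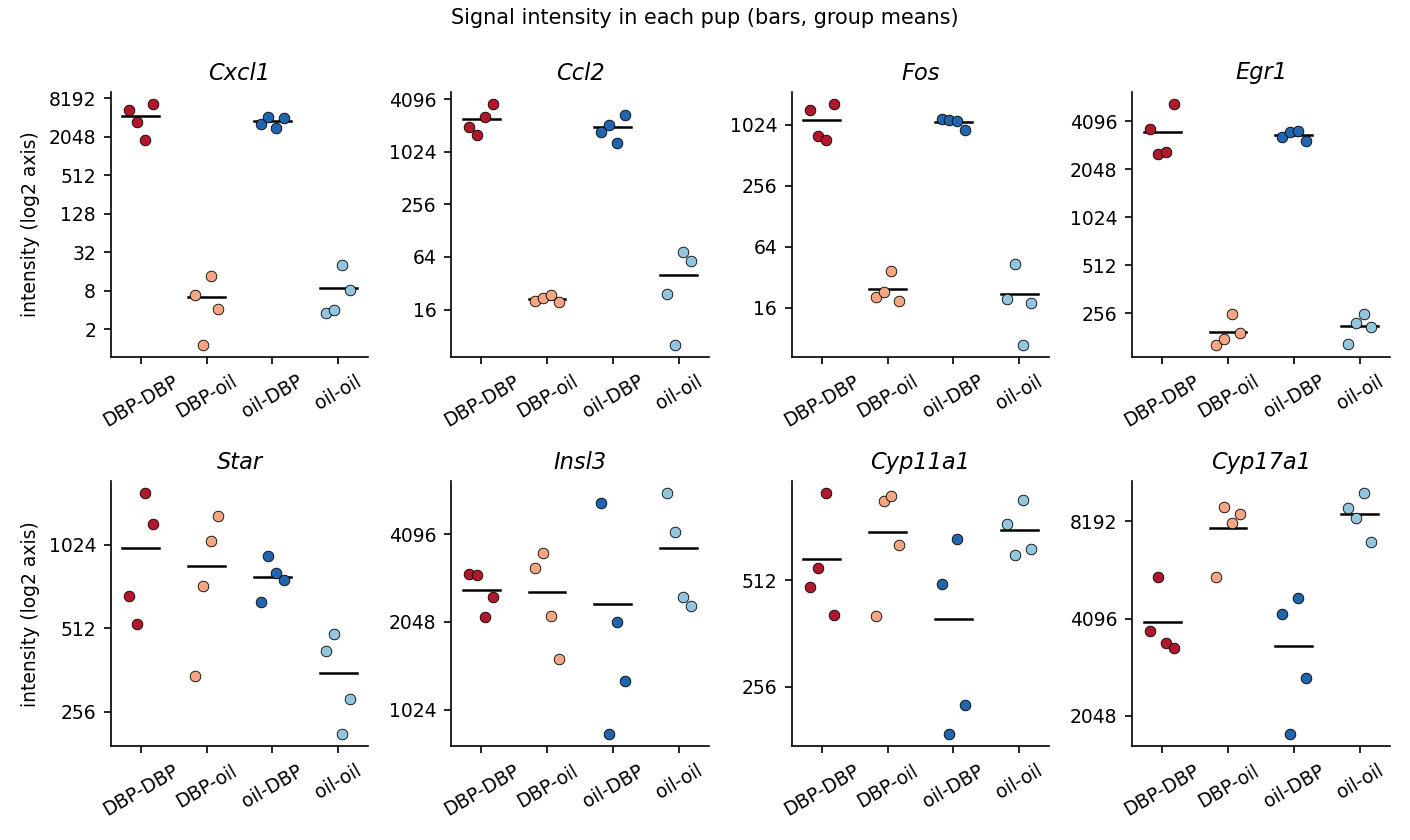
Intensity (log2 axis) of Cxcl1, Ccl2, Fos, Egr1, Star, Insl3, Cyp11a1 and Cyp17a1 in each of the 16 pups, by group, with bars at the arithmetic group means. The 4 early-response genes separate dosed from oil pups in both fetal groups; the steroid synthesis genes and Insl3 do not separate in the same way.

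Leukocyte markers were measured beside the chemokines. The 7 neutrophil markers summed to 655 to 4109 in DBP-DBP and 158 to 196 in DBP-oil pups. They summed to 434 to 1963 in oil-DBP and 153 to 245 in oil-oil pups, and 2 of them, Cxcr2 and Camp, had means under 16. S100a8 and S100a9, abundant neutrophil proteins, rose by 3.59 and 4.32 after fetal DBP and by 3.72 and 4.58 after fetal oil. The list mean had an interaction of 0.15 with wide bounds (-0.84 to 1.13). The 19 other leukocyte markers summed to 7639 to 11060 in DBP-DBP, 5964 to 7400 in DBP-oil, 8002 to 10330 in oil-DBP and 7126 to 8516 in oil-oil pups. Their part in the chemokine values was not tested. Il6, a cytokine of the acute phase, rose by 3.30 after fetal DBP and 3.31 after fetal oil (-0.01, -1.07 to 1.06). The 19 interleukin and signalling genes, of which 8 rose after fetal DBP and 9 after fetal oil, had a mean interaction of -0.05 (-0.34 to 0.24).

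Death receptor and p53 target genes responded in both fetal groups. Of 18 members, 9 rose and 2 fell after fetal DBP, and 11 rose and 1 fell after fetal oil. On average the list rose by 0.89 after fetal DBP and 0.96 after fetal oil, an interaction of -0.07 (-0.37 to 0.23), and 13 members had intervals within 1 log2 unit. Tnfrsf12a, the receptor of the cytokine TWEAK, had 2016, 1814, 3011 and 2406 in DBP-DBP pups and 141 to 195 in DBP-oil pups. It had 1547, 3677, 2685 and 3519 in oil-DBP pups and 89.6 to 197 in oil-oil pups. The dosed groups overlapped, and the responses were 3.58 after fetal DBP and 4.14 after fetal oil (-0.56, -1.21 to 0.10). Gadd45b, a stress sensor, and Tnfrsf1a, the main receptor of tumour necrosis factor, had interactions of -0.12 (-0.74 to 0.50) and -0.03 (-0.56 to 0.51). Fas, the death receptor through which Sertoli cells can trigger germ cell loss, rose by 2.02 after fetal DBP and 1.90 after fetal oil (0.12, -0.91 to 1.15). Cdkn1a, the cell cycle inhibitor induced by p53, rose by 1.57 after fetal DBP and 1.69 after fetal oil (-0.12, -0.62 to 0.38).

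Matricellular and plasminogen system genes shape the matrix around cells. Of 16 members, 9 rose in each fetal group, and 1 fell after fetal DBP and 2 after fetal oil. Adamts1, a secreted protease that cuts proteoglycans, had 410, 529, 720 and 652 in DBP-DBP pups and 34.1, 37.0, 73.3 and 45.1 in DBP-oil pups. It had 344, 429, 316 and 582.1 in oil-DBP pups and 70.4, 45.9, 68.5 and 49.5 in oil-oil pups. The dosed groups overlapped, with 3 of 4 oil-DBP pups below all but 1 of the DBP-DBP pups. The Adamts1 response was 3.22 after fetal DBP and 2.45 after fetal oil, an interaction of 0.76 (0.12 to 1.40) that did not pass (limma adjusted p = 0.954). Plaur, the urokinase receptor, Ccn1, a matrix-bound signal protein, and Adamts4, a related protease, had interactions of -0.20, 0.19 and 0.13. The list mean rose by 1.37 after fetal DBP and 1.18 after fetal oil (0.18, -0.15 to 0.51).

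Several strongly responding genes of the Sertoli cell and of activin signalling, which are themselves part of the index, were highest in the pups with the higher index. Testin, which is secreted at Sertoli cell junctions, had 1090, 1141, 3000 and 1850 in DBP-DBP pups 124, 128, 133 and 135, and 127 to 285 in DBP-oil pups. It had 1124, 3823, 1886 and 2919 in oil-DBP pups 105, 111, 115 and 121, and 83.3 to 234 in oil-oil pups. The 2 higher dosed pups of each fetal group were those with the higher index. Testin rose by 3.14 after fetal DBP and 3.73 after fetal oil (interaction -0.59, -1.67 to 0.48). Inhba, a subunit of activin, had 113, 115, 500 and 381 in DBP-DBP pups and 184, 587, 66.5 and 408 in oil-DBP pups, again highest in those pups. All 4 DBP-oil and all 4 oil-oil pups lay between 6.05 and 46.1. Its interaction was 0.08, with wide bounds of -1.47 and 1.64. Fst, which binds and neutralises activin, rose by 3.61 after fetal DBP and 3.98 after fetal oil (-0.38, -1.25 to 0.49). Calcb, a calcitonin gene-related peptide, rose by 5.07 after fetal DBP and 5.02 after fetal oil (0.05, -0.89 to 0.99), again with DBP-DBP pups 133 and 135 and oil-DBP pups 111 and 121 the highest.

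**Figure D4:**
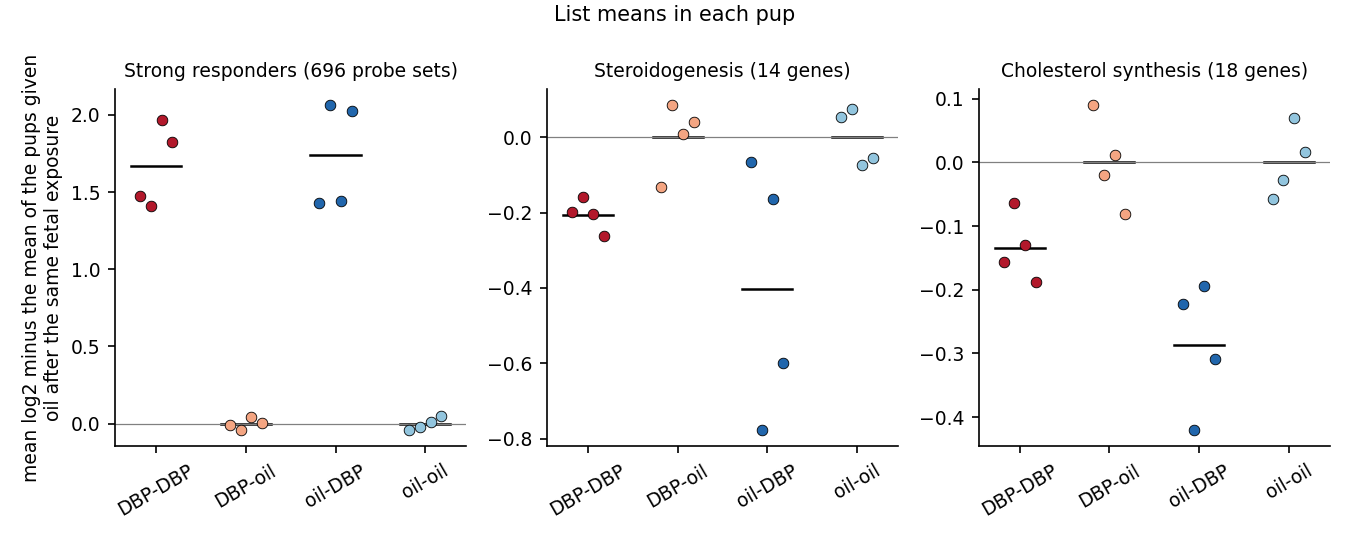
Per-pup values minus the mean of the own oil group (log2) for the strong-responder index, the steroid synthesis list and the cholesterol synthesis list in the 4 groups. The index overlaps between DBP-DBP and oil-DBP; the steroid synthesis values lie within -0.26 to -0.16 in DBP-DBP pups and spread over -0.78 to -0.07 in oil-DBP pups.

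Among strong responders, the 6 genes with the smallest interaction p were Scx, Angptl4, Il4r, Galr2, Adamts1 and Myoz2, and none passed (limma adjusted p = 0.954 for each). Scx, a transcription factor of tendon that is also expressed in Sertoli cells, had 204, 208, 191 and 167 in DBP-DBP pups and 596, 471, 599 and 564 in DBP-oil pups. It had 187, 397, 349 and 340 in oil-DBP pups and 390, 353, 531 and 529 in oil-oil pups. All DBP-DBP pups lay below 3 of the 4 oil-DBP pups, and only pup 105 was as low. The Scx responses were -1.48 after fetal DBP and -0.58 after fetal oil (interaction -0.90, -1.43 to -0.38). Angptl4, a lipase inhibitor and target of the PPAR lipid sensors, had 1151, 1059, 1160 and 1026 in DBP-DBP pups and 147 to 245 in DBP-oil pups. It had 1555, 1251, 710 and 1217 in oil-DBP pups and 323 to 452 in oil-oil pups. The dosed groups overlapped, and all DBP-oil pups were below all oil-oil pups. Its response was 2.38 after fetal DBP and 1.56 after fetal oil (0.82, 0.29 to 1.35).

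Il4r, the interleukin 4 receptor chain, had 213, 186, 412 and 273 in DBP-DBP pups and 20.8 to 33.5 in DBP-oil pups. It had 164, 236, 208 and 218 in oil-DBP pups and 40.4 to 68.7 in oil-oil pups. As with Angptl4, the groups separated in the pups given oil at PND35, where DBP-oil lay lower, and overlapped after the pubertal dose. The responses were 2.68 after fetal DBP and 1.69 after fetal oil (0.99, 0.32 to 1.66). Galr2, a galanin receptor, had 0.61 after fetal DBP, which did not pass, and rose by 1.87 after fetal oil (interaction -1.26, -2.27 to -0.25), and its other probe set gave -0.29. Myoz2, a muscle Z-disc protein, had 0.65 after fetal DBP, which did not pass, and rose by 1.40 after fetal oil (-0.75, -1.40 to -0.10).

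Over all genes, the 6 smallest interaction p-values in each direction mostly belonged to dim probe sets. Avp, the vasopressin gene, had 7.23, 19.9, 9.32 and 16.03 in DBP-DBP pups and 64.02, 89.9, 68.8 and 76.0 in DBP-oil pups. It had 38.0, 34.4, 56.9 and 19.2 in oil-DBP pups and 26.9, 23.0, 16.7 and 29.2 in oil-oil pups. The DBP-oil pups stood above all other pups, and the DBP-DBP pups were at or near the bottom of the scale. The interaction was -1.98 (-2.76 to -1.20; limma adjusted p = 0.672). RT1-T24-3, a class I histocompatibility gene by its symbol, had 54.2, 64.4, 26.8 and 72.3 in DBP-DBP pups and 7.59 to 19.1 in DBP-oil pups. It had 33.1, 12.6, 18.9 and 66.1 in oil-DBP pups and 63.6 to 93.8 in oil-oil pups. The interaction was 2.38 (1.42 to 3.33; limma adjusted p = 0.672), and histocompatibility genes have close copies that may share probes.

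The brighter genes of this kind had smaller interactions. Fbxo33, of the F-box family, had 2010, 2044, 2104 and 2204 in DBP-DBP pups and 1541 to 1826 in DBP-oil pups, without overlap. It had 1919, 1649, 1812 and 1852 in oil-DBP pups and 1822 to 2149 in oil-oil pups, which overlapped. Its interaction was 0.50 (0.25 to 0.75), but 2 other probe sets of Fbxo33 gave 0.10 and 0.05. Raly, an RNA-binding protein, had 1004 to 1032 in DBP-DBP and 934 to 1157 in DBP-oil pups, against 1019 to 1334 in oil-DBP and 772 to 840 in oil-oil pups. Its interaction was -0.50 (-0.78 to -0.22). Hspa4, a heat shock protein of the HSP110 group, and Peds1, a plasmalogen synthesis enzyme, had interactions of -0.91 and -0.84. In both, the oil-oil pups were the lowest group. The remaining genes were Scn1a (1.73), Leng9 (1.89), Il1rl1 (1.95), Chad (1.46), Cfi (-1.89) and Gckr (-1.85), with limma adjusted p = 0.954 for each. Other probe sets of Leng9 and Il1rl1 gave -0.17 and 0.17.

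Lipid pathways had weak acute responses but narrow bounds. Cholesterol synthesis enzymes provide the substrate of steroid hormones. Of 18 measured genes, 1 fell after fetal DBP (1.58% of all probe sets fell) and 5 after fetal oil (4.15%), and all 18 interaction intervals lay within 1 log2 unit. The list mean minus the own oil mean was -0.16, -0.06, -0.13 and -0.19 in DBP-DBP pups, against -0.22, -0.42, -0.19 and -0.31 in oil-DBP pups. These differences did not overlap, by a narrow margin, as was also so for 4 other of the 31 lists. Those were the markers of peritubular, spermatocyte, endothelial, and epididymis and adipose cells. The differences depend on the oil means, whose own error they leave out. Before the oil mean was taken off, the cholesterol list means overlapped, at 9.42 to 9.55 in DBP-DBP and 9.27 to 9.50 in oil-DBP pups. The cholesterol interaction was 0.15 (-0.01 to 0.31). Idi1, an enzyme of isoprenoid synthesis, had the largest member interaction, 0.44 (limma adjusted p = 0.954). The 21 genes of fatty acid oxidation and PPAR targets had a mean response of 0.08 after fetal DBP and -0.22 after fetal oil (0.30, 0.02 to 0.58). Pdk4, a kinase that spares glucose and a PPAR target, named after its value was seen, gave the largest member interaction, 1.53 (0.38 to 2.68), while its other probe set gave -0.76.

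Of all 31 list means, 4 had an interaction interval that excluded 0: the fatty acid oxidation list and the markers of spermatocytes (0.21, 0.05 to 0.37), of endothelial cells (0.20, 0.02 to 0.38) and of epididymis and adipose tissue (0.28, 0.02 to 0.54). The last list checks for adherent tissue, and 3 of its 10 members had means under 16. These intervals are not adjusted for the 31 lists. No member of any list passed for the interaction.

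The spread between pups after the pubertal dose was smaller in the DBP-DBP group for most probe sets. Among 15883 probe sets with a mean intensity of at least 100, the median SD of the log2 values was 0.143 in DBP-DBP, 0.156 in DBP-oil, 0.201 in oil-DBP and 0.174 in oil-oil pups. After the pubertal dose the SD was smaller in DBP-DBP than in oil-DBP pups for 70.8% of these probe sets, with a median ratio of 0.712. Without the pubertal dose it was smaller in DBP-oil than in oil-oil pups for 56.0%, with a median ratio of 0.906. Among the 696 strong responders the ratio after the dose was 0.776, and 69.8% were less spread in DBP-DBP pups. Probe sets share the same 4 animals per group, so these shares describe these pups and carry no test. The DBP-DBP and oil-DBP arrays also differed throughout in spike-in level, which cannot be told apart from fetal exposure here. The median log2 ratio after the dose was -0.49 with all pups and -0.26 without oil-DBP pup 105, the pup farthest from its group.

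Tests of single probe sets did not settle which genes differed in spread. On absolute deviations from the group mean, limma called 300 probe sets after the pubertal dose (0.966%), 250 with a smaller and 50 with a larger spread in DBP-DBP than in oil-DBP pups. In the pups given oil at PND35 it called 226 (0.728%), 130 smaller and 96 larger in DBP-oil than in oil-oil pups. On absolute deviations from the group median limma called 0 in both comparisons, with 1849 (5.96%) and 1690 (5.44%) at an unadjusted p under 0.05. The F test of the variance ratio, added after the data were seen, also called 0, with 2403 (7.74%) and 2218 (7.15%) at an unadjusted p under 0.05. Since the calls did not hold under either of these tests, the 300 and 226 are not read as differences. The 4 genes with the smallest p for a smaller spread, Gria1, Igsf21, Kcnb2 and LOC102548472, had every DBP-DBP value under 13. Of the 4 for a larger spread, Vom2r40 and Vgll1 each rested on 1 DBP-DBP pup, at 18.9 and 24.8. Cd53, a leukocyte membrane protein, had 82.8, 124, 271 and 244 in DBP-DBP pups and 190, 217, 179 and 215 in oil-DBP pups, and Tprkb had 111 to 193 in DBP-DBP pups and 173 to 187 in oil-DBP pups.

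**Figure D5:**
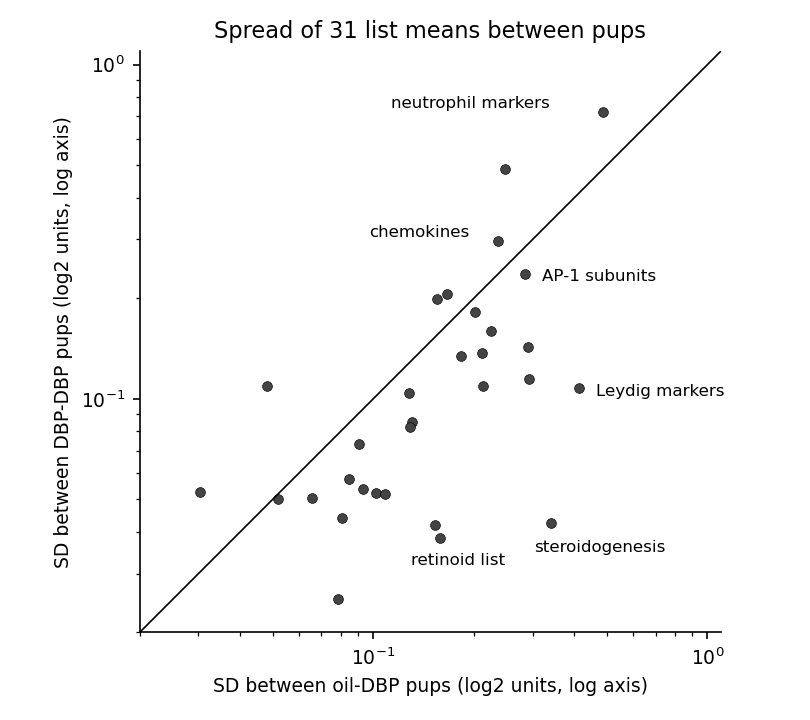
SD between the 4 DBP-DBP pups (vertical, log axis) against the SD between the 4 oil-DBP pups (horizontal, log axis) of 31 list means, with the line of equal spread. For 24 of the 31 lists the SD was smaller in DBP-DBP pups; the steroid synthesis list lies farthest below the line.

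The SD of the list means was smaller in DBP-DBP than in oil-DBP pups for 24 of 31 lists, and smaller in DBP-oil than in oil-oil pups for 19 of 31. An F interval with 3 and 3 degrees of freedom excluded a ratio of 1 for 2 lists after the pubertal dose, and these intervals are not adjusted for the 31 lists. They were steroid synthesis, with a ratio of 0.125 (0.0318 to 0.491), and the list of retinoid genes and genes known from fetal phthalate studies, with 0.243 (0.0619 to 0.955). In the pups given oil at PND35 it excluded 1 for MAP kinase and mRNA feedback genes, at 5.59 (1.42 to 21.96), and for peritubular markers, at 4.75 (1.21 to 18.7), both more spread in DBP-oil pups. Of the strongly responding pathways, all but the chemokines had a smaller SD in DBP-DBP than in oil-DBP pups, and every interval of their ratios included 1. The ratios were 0.91 for Egr and Nr4a, 0.81 for feedback, 0.65 for death receptor and 0.71 for matricellular genes. The SD of the chemokine list was 0.296 in DBP-DBP and 0.236 in oil-DBP pups, that of the NF-kB list 0.143 in DBP-DBP and 0.290 in oil-DBP pups, and that of the AP-1 list 0.236 in DBP-DBP and 0.285 in oil-DBP pups. The index had a ratio of 0.766 with bounds of 0.195 and 3.01. Egr1 and Fos had ratios of 5.44 (1.39 to 21.4) and 3.69 (0.938 to 14.5), more spread in DBP-DBP pups, against 0.193 (0.0492 to 0.759) for Gadd45b. These gene intervals are not adjusted either. None of these ratios passed (F test adjusted p = 0.569, 0.657 and 0.574 for Egr1, Fos and Gadd45b).

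The steroid synthesis list had the smallest ratio of spread of the 31 lists. Its members include Insl3, a Leydig cell hormone and not a steroid synthesis enzyme. The SD of Insl3 was 0.26 in DBP-DBP and 1.16 in oil-DBP pups (log2). Hsd17b3, Hsd17b1 and Cyp19a1, named after their values were seen, were dim members. Hsd17b3 had 98.67, 13.75, 26.39 and 24.15 in oil-DBP pups 105, 111, 115 and 121, and 44.6 to 48.14 in DBP-DBP pups. The part of these members in the list ratio was not tested. The list mean of 14 genes, minus the own oil mean, was -0.20, -0.16, -0.21 and -0.26 in DBP-DBP pups 124, 128, 133 and 135. It was -0.07, -0.78, -0.17 and -0.60 in oil-DBP pups 105, 111, 115 and 121. The oil-DBP pups fell on both sides of the DBP-DBP pups, with 2 near no change and 2 far lower. The SD was 0.0425 in DBP-DBP and 0.341 in oil-DBP pups, and 0.0941 in DBP-oil and 0.0748 in oil-oil pups. The list ratio stayed between 0.0722 and 0.153 when any 1 pup was left out. The mean responses were -0.21 after fetal DBP and -0.40 after fetal oil, with an interaction of 0.20 (-0.20 to 0.59). In oil-DBP pups the 2 lowest, 111 and 121, were those with the highest index, while DBP-DBP pups 133 and 135, with the highest index of their group, had steroid synthesis values beside those of their group mates.

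Single genes of the steroid synthesis list were near the background in spread. Of the 14, 11 had a smaller SD in DBP-DBP than in oil-DBP pups, with a median ratio of 0.684, less marked than the ratio of the list mean. Over all probe sets 65.3% had a smaller SD in DBP-DBP pups, with a median ratio of 0.776. Among those with a mean intensity of at least 100 it was 70.8%, with a median ratio of 0.712. Genes named from here to the end of the paragraph, other than Star and Cyp17a1, were chosen after their values were seen. Insl3, the Leydig cell hormone of testis descent, had 2996, 2966, 2123 and 2484 in DBP-DBP pups and 1524 to 3536 in DBP-oil pups. It had 5244, 842, 2048 and 1284 in oil-DBP pups and 2317 to 5650 in oil-oil pups. The oil-DBP pups enclosed the DBP-DBP pups on both sides, and the SD ratio was 0.224 (0.057 to 0.88; F test adjusted p = 0.61). Cyp11a1, the first enzyme of steroid synthesis, had 489, 555, 904 and 408 in DBP-DBP pups and 500, 187, 671 and 227 in oil-DBP pups, with pups 111 and 121 the lowest of all. Its interaction was 0.78 (-0.15 to 1.71). Cyp17a1, which leads to androgens, fell by 0.99 after fetal DBP and fell by 1.504 after fetal oil on the log2 scale (0.52, -0.18 to 1.22). Hsd3b1, a later enzyme, had an interaction of 0.54 (0.11 to 0.97; limma adjusted p = 0.954), and Lhcgr, the luteinising hormone receptor, one of 0.45 (-0.01 to 0.90).

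Star, which carries cholesterol into mitochondria, was not lower after the dose in either fetal group. It had 671, 530, 1565 and 1213 in DBP-DBP pups and 345, 723, 1050 and 1300 in DBP-oil pups, which overlapped. It had 636, 928, 810 and 761 in oil-DBP pups and 422, 487, 212 and 286 in oil-oil pups, which did not overlap. Star had 0.22 after fetal DBP (limma adjusted p = 0.83) and rose by 1.11 after fetal oil (adjusted p = 0.038), and the difference itself did not pass (interaction -0.89, -1.86 to 0.08). Its SD was larger in DBP-DBP pups (ratio 3.76, 0.957 to 14.8), and a second probe set gave an interaction of -0.28. Pups 133 and 135 were high for Star and low for Nr5a1, the regulator of steroid genes, also chosen after its values were seen. They had 225 and 227 for Nr5a1, against 354 and 357 in pups 124 and 128. Among oil-DBP pups, pup 111 likewise had the highest Star, 928, and the lowest Nr5a1, 240. The part of such opposite members in the spread of the list mean was not tested. Nr5a1 fell by 0.95 in both fetal groups, with an interaction of 0.00 (-0.62 to 0.62). The 11 Leydig cell markers summed to 15310 to 17990 in DBP-DBP, 15280 to 20210 in DBP-oil, 10940 to 19400 in oil-DBP and 17670 to 24290 in oil-oil pups, and the SD ratio of their list mean was 0.261 (0.0664 to 1.03). These markers share members with the steroid synthesis list, and their part in its spread was not tested.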

How the data were processed

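Testis RNA of 16 PND35 rats was hybridised to Affymetrix Rat230_2 arrays. The authors deposited linear probe-set intensity per array; GCOS 1.0 is named in the submitters' processing notes, and how probes were summarised is not given in the labels. The deposited intensity has the same 2% trimmed mean on every array, 500.135 to 500.194. The 16 arrays limit the precision.

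Of 31099 probe sets, 57 controls were left out and 31042 tested; 20826 have 1 gene symbol, 436 several and 9780 none, in the platform's annotation. The brightest probe set stood for each of 14217 genes. Log2(intensity + 16) values were centred on each array's median. Groups, from the titles, were fitted together with limma 3.58.1 in R 4.3.3 (lmFit, eBayes with intensity trend); tests were two-sided, adjusted by Benjamini-Hochberg, with a threshold of 0.05. List means were fitted by a linear model with 12 residual degrees of freedom, without a p. Single-gene intervals are the 95% intervals of the moderated fit. Spread was tested on absolute deviations from the group mean in the same way. The scripts for the interaction and for spread were tested on simulated data.

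Members and gene lists were chosen with earlier results of these data known. Genes were named by rule: the 6 smallest interaction p-values per direction, the 4 largest average responses per strong list, the 6 smallest interaction p-values among strong responders, the 4 smallest spread p-values per direction, and a fixed set. All others were chosen after their values were seen: Jun, Junb, Nfkbia, Tnfaip3, Cxcl10, S100a8, S100a9, Cxcr2, Camp, Idi1, Pdk4, Cyp11a1, Insl3, Hsd3b1, Hsd17b3, Hsd17b1, Cyp19a1, Lhcgr, Nr5a1, Nr0b1, Scarb1, Cyp26b1, Rhox5, Ctsl and Srxn1. The labels do not say whether adjacent pup numbers mark littermates, so pups were not paired. Adjacent numbers had a consensus correlation of 0.054 over all probe sets, which cannot exclude shared dams. Alternatives covered normalization, pseudocount, a filter on dim probe sets, covariates, array weights and each pup left out.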

Additional observations from a re-analysis of the deposited data

Results flagged for a closer look

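In each group of 4 pups, a value was picked out where the gap between the highest or lowest pup and the nearest other, over the group's range, exceeded Dixon's limit. Chance picks out about 1 in 20 groups, and 20 of the 420 groups tested were picked out. In DBP-DBP pups these were Peds1 (429.8 in pup 133, against 303 to 310.5 in the others), Vom2r40 (18.92 in pup 133, others 1.90 to 2.52), Vgll1 (24.84 in pup 124, others 1.61 to 3.44), Fst (1192 in pup 133, others 626.9 to 657.9) and Cdkn1a (1730 in pup 128, others 1979 to 2006). In DBP-oil pups they were Scn1a (17.66 in pup 134, others 3.29 to 4.06), Fosl1 (52.08 in pup 127, others 31.03 to 35.27), Atf3 (19.19 in pup 127, others 37.53 to 40.84) and Stc1, a calcium-regulating hormone (12.65 in pup 123, others 43.4 to 46.87). In oil-DBP pups it was Scx (186.5 in pup 105, others 340.0 to 396.8). In oil-oil pups they were Cfi (22.67 in pup 120, others 6.79 to 8.40), Nfkbiz (7.92 in pup 104, others 43.04 to 51.37), Angptl4 (452.4 in pup 114, others 322.5 to 346.7) and Kcnb2 (2.47 in pup 120, others 8.53 to 9.12).

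Among list means, minus the own oil mean, 6 pups were picked out. They were DBP-DBP pup 124 for the NRF2 and xenobiotic list (0.39, others 0.49 to 0.50), DBP-DBP pup 133 for junction genes (-0.025, others 0.13 to 0.16) and for endothelial markers (0.24, others 0.07 to 0.09), DBP-oil pup 127 for the death receptor and p53 list (-0.086, others 0.02 to 0.04), DBP-oil pup 134 for spermatid markers (-0.30, others 0.07 to 0.15), and oil-DBP pup 105 for blood markers (0.32, others -0.06 to -0.01).

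Among 73 named genes and 31 lists examined, for 7 genes and 1 list every pup of one fetal group moved one way from its own oil mean and every pup of the other fetal group the opposite way. The interactions were 2.38 for RT1-T24-3, 1.89 for Leng9, 1.95 for Il1rl1, 1.46 for Chad, 0.50 for Fbxo33, -1.89 for Cfi and -0.50 for Raly, and none passed in limma after adjustment. All 7 are among the 12 genes named for the smallest interaction p, a choice that favours opposite responses, so their count is no evidence of its own. The list was that of epididymis and adipose markers (0.28), for which the difference was not tested.

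The poly-A spike-in controls, which are outside the main measurement, averaged 7.11 in DBP-DBP arrays on the log2 scale, above the 5.82 of oil-oil arrays.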

How the results depend on the processing

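The interaction called 0 probe sets under all 14 alternatives and with each of the 16 pups left out, with adjusted p no lower than 0.152 (limma, without oil-DBP pup 121). With pairs of adjacent pup numbers as a replicate block it called 0, and the acute calls were 1752 after fetal DBP and 3177 after fetal oil. What adjacent numbers mean is not given in the labels, and their pair correlations were -0.13 to 0.24. Counts of spread calls after the pubertal dose, 300 in the report, were 179 with a pseudocount of 1, 93 with a filter on dim probe sets, 121 without the intensity trend, 181 with RNA integrity and 0 with spike-in class as a covariate, 1006 without both Trizol arrays, 0 with deviations from the median, 0 with the F ratio, and 250 to 1233 with a pup left out (618 without oil-DBP pup 105, 514 without pup 111, 824 without pup 115, 1233 without pup 121 and 453 without oil-oil pup 120). In pups given oil, 226 in the report, they were 149 with centring on the 75th percentile, 41 with the dim filter, 122 without the trend, 129 with extraction, 19 with RNA integrity and 81 with spike-in class as covariates, 516 without both Trizol arrays, 0 with the median, 0 with the F ratio, and 254 to 579 with a pup left out. The cause was not tested. With a pup left out, the median log2 spread ratio was -0.66 to -0.26 after the dose and -0.26 to -0.052 without it, and the index interaction -0.20 to 0.03. Its ratio of SDs was 0.655 to 0.855.

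List interactions with a pup left out were 0.14 to 0.39 for chemokines, -0.14 to -0.01 for death receptor genes, -0.09 to 0.14 for AP-1, -0.25 to -0.07 for Egr and Nr4a, -0.03 to 0.09 for feedback, 0.11 to 0.26 for matricellular and -0.04 to 0.16 for NF-kB genes. Of 899 list values, 6 moved by more than the spread between replicates: fatty acid oxidation 0.43 with a pseudocount of 1, endothelial 0.12 with 64, and, with spike-in class, Kruppel-like -0.17, fatty acid synthesis -0.10, heat shock 0.09 and peritubular 0.22.

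Of 2098 single-gene interactions, 129 changed sign, in 22 of 73 genes, and 0 were called. Those with spike-in class were Maff -0.081, Fas -0.21, Tnfrsf1a 0.042, Adamts4 -0.10, Il6 0.0074, Inhba -0.078, Nr5a1 0.21 and Scarb1 -0.021. With a pseudocount of 64 they were Fosl1 -0.021, Il6 0.15, Calcb -0.020 and Nr5a1 0.0022, and with 1, Adamts4 -0.16 and Cd53 -0.0030. With array weights they were Fosl1 -0.0026, Fas -0.029, Adamts4 -0.056, Cd53 -0.043, Inhba -0.012, Calcb -0.062 and Nr5a1 0.094. Without both Trizol arrays they were Fosl1 -0.083, Ccl20 -0.18, Ripk2 0.017, Nfkb2 -0.12, Fas -0.22, Adamts4 -0.20, Cd53 -0.056, Inhba -0.40, Calcb -0.055 and Nr5a1 0.16. With RNA integrity they were Nfkbiz -0.041, Ripk2 0.0031, Nfkb2 -0.058, Tnfrsf1a 0.046, Il6 0.017 and Nr0b1 -0.030. Quantile normalization gave Nfkb2 -0.010 and Cd53 -0.011, no centring Cd53 -0.044, and the 75th percentile Cd53 -0.018.

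With a pup left out, genes that changed sign ranged over -0.10 to 0.59 (Adamts4), -0.20 to 0.25 (Calcb), -0.22 to 0.28 (Cd53), -0.061 to 0.51 (Cyp26b1), -0.041 to 0.30 (Egr1), -0.22 to 0.34 (Fas), -0.37 to 0.098 (Fos), -0.079 to 0.39 (Fosl1), -0.27 to 0.086 (Gadd45b), -0.25 to 0.035 (Ier3), -0.32 to 0.22 (Il6), -0.46 to 0.48 (Inhba), -0.010 to 0.56 (Maff), -0.29 to 0.46 (Nfkb2), -0.30 to 0.53 (Nfkbiz), -0.084 to 0.36 (Nr0b1), -0.19 to 0.15 (Nr5a1), -0.45 to 0.074 (Plaur), -0.23 to 0.18 (Ripk2), -0.13 to 0.25 (Scarb1) and -0.21 to 0.12 (Tnfrsf1a). Intervals of dim genes are limited by signal near the bottom of the scale.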

Other observations

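Markers of the Sertoli cell had a mean response of 0.13 after fetal DBP and 0.35 after fetal oil (interaction -0.22, 95% interval -0.54 to 0.09). They include Testin, which rose by 3.14 after fetal DBP and 3.73 after fetal oil and lifts both means. The median response of the members was -0.03 after fetal DBP and 0.20 after fetal oil. The per-pup values of the list mean were 0.15, 0.18, 0.08 and 0.11 in DBP-DBP pups, against 0.13, 0.38, 0.43 and 0.47 in oil-DBP pups, so that only oil-DBP pup 105 overlapped the DBP-DBP pups. Of 16 markers, 1 rose and 3 fell after fetal DBP, where 3.64% of all probe sets rose and 1.58% fell. After fetal oil 6 rose and 3 fell, where 4.77% of all probe sets rose and 4.15% fell. The difference between these counts was not tested. Ctsl, a protease secreted by Sertoli cells, had 0.64 after fetal DBP, which did not pass, and rose by 1.05 after fetal oil; its interaction was -0.42 (-1.04 to 0.21). Rhox5, an androgen-responsive homeobox gene of Sertoli cells in mice, chosen after its value was seen, had the largest member interaction, -1.62 (-2.63 to -0.61), at a mean intensity of 51.9.

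Stress and metabolic lists that responded weakly were bounded closely. The interaction of the list mean was 0.06 (-0.11 to 0.23) for NRF2 and xenobiotic genes, 0.03 (-0.10 to 0.16) for heat shock and unfolded protein genes, -0.05 (-0.23 to 0.12) for glucocorticoid and C/EBP genes, and 0.02 (-0.17 to 0.22) for fatty acid synthesis genes. Hmox1, the haem-degrading enzyme, rose by 0.75 after fetal DBP and 1.01 after fetal oil (-0.26, -0.61 to 0.09). Srxn1, which restores oxidised peroxiredoxins, rose by 3.73 after fetal DBP and 3.65 after fetal oil (0.08, -0.88 to 1.03), the strongest rise of its list. Stc1 did not pass in either fetal group, with 0.54 after fetal DBP and 0.22 after fetal oil (0.32, -0.53 to 1.16).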
